A study of Mus musculus with 24 samples.

Results

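The response to dextran was compared between 2 cell types of the mouse ovarian follicle, the oocyte and the granulosa cells around it. The quantity is an interaction, the dextran minus control difference in oocytes minus the same difference in granulosa cells, on the log2 scale, so a negative value means that dextran went with a lower level in oocytes relative to granulosa cells. The genes described are those expressed in both cell types, defined as a mean of at least 5 CPM (counts scaled to library size) in the oocyte control and in the granulosa control libraries. There were 7886 such shared genes among 20601 tested and 78298 in the deposited tables. Another 2129 genes reached the limit in granulosa controls alone and 2952 in oocyte controls alone, and these are reported apart. The control libraries that set these classes are also the controls of the interaction. Just inside the limit was Ulk2 at 5.00 CPM in oocyte controls, with an interaction of -0.87. Just outside was Gtf3c4 at 4.99 CPM, with -1.51. On the granulosa side Ghdc at 5.00 CPM (0.47) was just inside and Mfsd4a at 4.99 CPM (-0.05) just outside.

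All libraries came from primary cells of wild-type (WT) follicles. The follicles were embedded in alginate, which forms a soft hydrogel, and grew until day 3 in medium with serum, insulin-transferrin-selenium and follicle-stimulating hormone at 50 mIU/ml. Oocyte control, oocyte dextran, granulosa control and granulosa dextran had 4 libraries each. Dextran, a polysaccharide added to the medium at 10 kPa, compresses the follicle osmotically. Only follicles that had passed 180 µm were taken apart, by hand, so the libraries describe follicles that grew under their treatment. An oocyte library pooled 1 to 2 oocytes, and a granulosa library pooled many cells. Another treatment, 20 µM blebbistatin (a myosin II inhibitor), is not described here, but its libraries helped to estimate the spread. Replicates are labelled biological, without mention of separate animals or cultures, so p-values measure the spread between these libraries, which may be partly technical. The animals' age and strain are not used here.

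A growing oocyte and its granulosa cells lie inside the same basement membrane, which borders the granulosa layer, and are joined by gap junctions. Granulosa cells take up glucose and pass pyruvate and amino acids inward, while the oocyte secretes growth factors of the TGF-beta family that act on the granulosa cells. The oocyte stores much of its RNA for later use, while granulosa cells divide and keep transcribing, and they carry the contacts with matrix and neighbours through which cells sense load. Immediate early genes, actin genes under serum response factor and targets of the coactivators YAP and TAZ are known to respond to load and to serum.

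Oocyte and granulosa libraries were clearly distinct, but 2 oocyte control libraries held granulosa transcripts. The granulosa marker list (20 tested genes, mean log2(CPM + 1)) stood at 3.54, 4.86, 1.91 and 1.57 in oocyte control replicates 1 to 4 and at 1.37 to 1.97 in oocyte dextran, against 6.17 or more in every granulosa library. In oocyte control replicates 1 and 2, 18 of the 20 markers were above all 4 oocyte dextran libraries, while in replicates 3 and 4 this held for 3 and 0. Summed over the list, replicate 2 reached 14.2% and replicate 1 reached 4.78% of the granulosa control level, and the other oocyte libraries lay between 1.80% and 2.63%. Fshr, the receptor of follicle-stimulating hormone, ran from 0 to 3.26 CPM in oocyte control, 0.348 to 0.708 in oocyte dextran, 57.9 to 76.3 in granulosa control and 19.2 to 70.4 in granulosa dextran (CPM of unscaled totals, as for the next 2 genes). Foxl2, a granulosa transcription factor, did not exceed 0.066 CPM in oocyte dextran but reached 4.62 in oocyte control, and Cyp19a1, listed as a granulosa marker, was higher in oocyte libraries (17.6 to 36.8 CPM) than in granulosa libraries (0 to 17.9). Oocyte markers stood at 9.80 to 10.0 in the oocyte libraries and at 0.317 to 0.438 in the granulosa libraries, and Nlrp5 was at 0 in all granulosa libraries of both groups. Lists of stromal, theca, immune, endothelial, red blood cell and surface epithelial markers, the mitochondrial share of counts, the number of genes detected and the share of the 50 most abundant genes were compared in the same way. None of 33 exact permutation tests (two-sided, 70 arrangements in each cell type and 4900 for the interaction) reached an unadjusted p under 0.05, and the lowest adjusted p was 0.811. For the granulosa list the oocyte difference was -1.27 (exact permutation p = 0.171) and the granulosa difference -0.39 (p = 0.229). Stromal markers ran from 1.07 to 3.7 in granulosa control and 0.714 to 3.62 in granulosa dextran, and the red blood cell list stood at 2.73 in oocyte control replicate 4 and at most 0.481 in the other oocyte controls. Total counts were 14244100 to 18399600 in oocyte libraries and 16432300 to 22431000 in granulosa libraries of these groups. Results that rest on oocyte controls are therefore given with and without replicates 1 and 2.

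**Figure D1:**
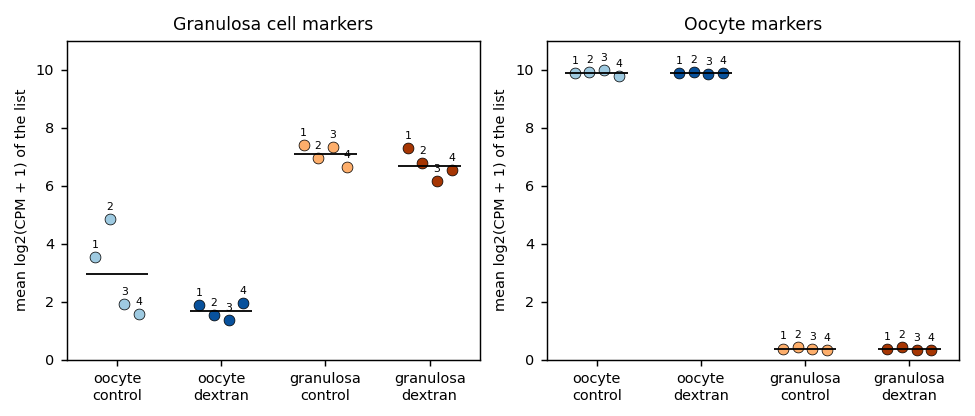
Mean log2(CPM + 1) of the granulosa cell markers (left) and oocyte markers (right) in each library (points, numbered by replicate), with group means (lines). Oocyte control replicates 1 and 2 (3.54 and 4.86) lie above the other oocyte libraries on the left and among them on the right.

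With all libraries, no gene passed in the interaction. In edgeR's quasi-likelihood test with Benjamini-Hochberg adjustment, 0 of 20601 genes (0%) had an adjusted p under 0.05, and the smallest adjusted p was 0.246. In the separate comparisons dextran called 0 genes (0%) in oocytes (smallest adjusted p 0.0652) and 0 genes (0%) in granulosa cells (smallest adjusted p 0.0756). At an unadjusted p under 0.05 the interaction listed 1912 genes. DESeq2 called 210 genes, of which 39 were shared, and limma voom called 0. Leaving out oocyte control replicate 4 gave 91 calls in edgeR, 42 of them shared and 90 of them lower, and leaving out any other single library gave 0 to 6. Among the shared genes 31 were higher in oocytes relative to granulosa cells at an unadjusted p under 0.05 (0.393%, against 1.52% of all genes tested) and 595 were lower (7.55%, against 7.76% of all genes tested). The share of shared genes on the lower side was thus close to that of all genes. The median interaction was -0.15, made of -0.13 in oocytes and -0.01 in granulosa cells, with a median standard error (SE) per gene of 0.33, and 94.2% of shared genes lay within 1 log2 unit of 0. That shift depended on scaling. With size factors in place of TMM factors the shared median was -0.02 and the split 86 higher to 411 lower, and with TMM factors taken within each cell type it was -0.05 with 67 to 449. Values of lists are therefore also given relative to the shared median. Across the 7886 shared genes the change in oocytes and the change in granulosa cells were nearly unrelated (Pearson 0.067, Spearman 0.0295, across genes of libraries prepared together, which are not independent replicates), as the scatter of both changes shows. Without oocyte control replicates 1 and 2 the values were 0.0752 and 0.101. Error in the estimated changes lowers such a correlation, so it does not show that the cell types respond independently.

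The lower side followed how much more abundant a gene was in granulosa cells. Of 365 shared genes over 10-fold higher in granulosa than in oocyte controls, 98.1% had a negative change in oocytes, the median interaction was -1.79, and 220 (60.3%) were lower at an unadjusted p under 0.05. The same oocyte controls set the 5 CPM limit, the ratio and the interaction. A gene of this class can reach the limit through high values in few oocyte controls. Its negative change is then partly fixed in advance, so these counts are not independent support. Of 7193 genes within 10-fold the median was -0.13, with 29 higher and 363 lower (5.05%). Of 328 genes over 10-fold higher in oocytes it was -0.03, with 2 higher and 12 lower (3.66%). Without oocyte control replicates 1 and 2, the libraries with granulosa transcripts, the medians of these classes were 0.17, 0.05 and 0.07. The counts then stood at 12 higher and 14 lower, 145 and 101, and 2 and 9, in all 159 higher (2.02%) and 124 lower (1.57%) of the 7886 shared genes. Of the 595 lower genes, 109 were still lower at an unadjusted p under 0.05 without those 2 libraries and 99 had the opposite sign. Of the 31 higher genes, 22 were still higher and 0 had turned. Without them 433 of the shared genes fell under the limit in oocyte controls and 7453 still met it in both cell types. In that fit 1 gene passed (the granulosa-only gene Papss2, below), none of the shared genes did, and 1070 of all genes had an unadjusted p under 0.05.

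**Figure D2:**
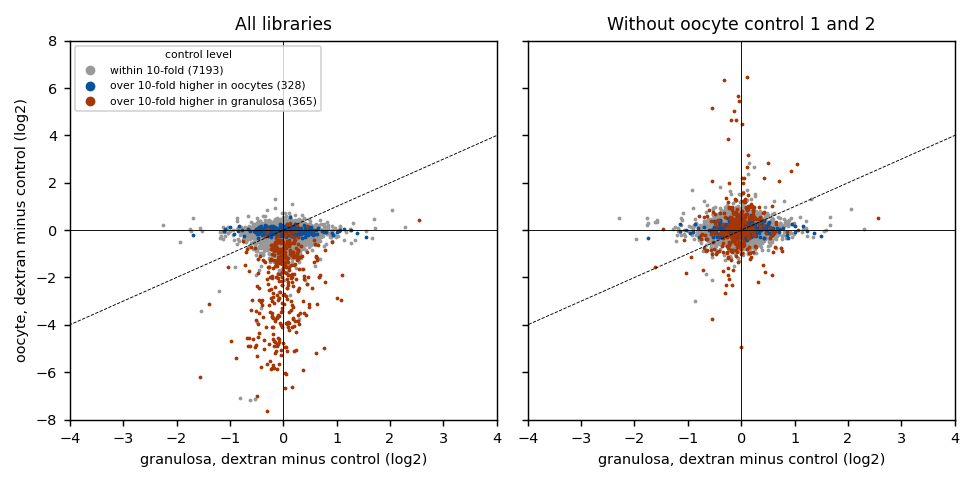
Dextran minus control on the log2 scale in granulosa cells (x) and oocytes (y) for the 7886 shared genes, with all libraries (left) and without oocyte control replicates 1 and 2 (right), coloured by the ratio of control levels (dashed line, equal change; 1 point lies outside the left axes). The 365 genes over 10-fold higher in granulosa cells spread downward on the left (median in oocytes -1.80) and lie around 0 on the right (median 0.05).

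The 6 shared genes with the smallest unadjusted p on the lower side were Fyttd1, Flna, Cenpa, Tubb2a, Id2 and Creg1, and none passed the adjusted test (adjusted p 0.246 to 0.266). In Cenpa, Tubb2a and Id2 the larger part of the interaction was a higher level in dextran granulosa cells. In Fyttd1, Flna and Creg1 it was a lower level in dextran oocytes. For Creg1 that held with all libraries only. Without oocyte control replicates 1 and 2 its oocyte change was -0.37 of an interaction of -0.80, so the granulosa part was then the larger. Fyttd1, an mRNA export adaptor, had 11.9, 24.9, 12 and 12.3 CPM in oocyte control replicates 1 to 4 and 7.56, 6.07, 4.16 and 6.47 in oocyte dextran. Its granulosa values were 138, 124, 160 and 142 in control and 176, 152, 152 and 151 in dextran. Oocyte groups did not overlap and granulosa groups did, and the interaction was -1.5 (SE 0.30, unadjusted p = 5.16e-05), or -1.13 without oocyte control replicates 1 and 2. Flna encodes filamin A, which crosslinks actin filaments. It had 6.86, 8.46, 4.02 and 2.26 CPM in oocyte control and 2.25, 0.734, 1.02 and 0.473 in oocyte dextran, and 70.3, 65.8, 77.8 and 118 against 75.8, 126, 140 and 109 in granulosa cells. Every oocyte dextran library was below every oocyte control library, with an interaction of -2.70 (SE 0.54, unadjusted p = 5.94e-05), or -1.88 without those 2 libraries, where its oocyte level falls under 5 CPM.

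Cenpa, the histone variant of centromeres, had lower values in dextran oocytes and higher values in dextran granulosa cells, without overlap in either. It had 137, 128, 140 and 130 CPM in oocyte control and 123, 104, 87.8 and 126 in oocyte dextran, and 116, 122, 104 and 105 in granulosa control against 185, 159, 152 and 137 in granulosa dextran. The interaction was -0.79 (SE 0.16, unadjusted p = 7.12e-05) and -0.76 without oocyte control replicates 1 and 2. Tubb2a, a beta-tubulin with close paralogs whose reads the counting may have split, had 459, 498, 508 and 445 CPM in oocyte control and 388, 433, 449 and 482 in oocyte dextran. In granulosa cells it had 15.4, 12, 9.72 and 20.4 in control and 22.3, 46.6, 52.1 and 29.4 in dextran. The granulosa groups did not overlap and the oocyte groups did, with a granulosa change of 1.39 (SE 0.22), an oocyte change of -0.12 (SE 0.22) and an interaction of -1.51 (SE 0.31).

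Id2 encodes an inhibitor of DNA binding and is a known target of BMP signalling through SMAD proteins. Its granulosa values were 42.8, 45.4, 71.7 and 70.8 CPM in control and 149, 136, 142 and 130 in dextran, a change of 1.27 (SE 0.27), and the groups did not overlap. Oocytes had 9.73, 8.52, 5.92 and 6.27 CPM in control and 4.22, 3.14, 9.02 and 4.26 in dextran, which overlapped. The interaction was -1.83 (SE 0.38, unadjusted p = 0.000108), and -1.47 without oocyte control replicates 1 and 2. Creg1, a secreted and lysosomal glycoprotein gene, had 46.1, 67.6, 42.4 and 30.5 CPM in oocyte control and 28.1, 26.1, 26.0 and 32.3 in dextran, and 192, 235, 199 and 204 against 323, 286, 229 and 313 in granulosa cells. Its oocyte groups overlapped through 1 library each and its granulosa groups through 1 library each, with an interaction of -1.20 (SE 0.26) and -0.80 without those libraries. The direction of all 6 genes was negative in the main fit and in the 35 alternatives run, and the adjusted p of each passed 0.05 in 2 to 4 of them.

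The 6 shared genes with the smallest unadjusted p on the higher side were Ggct, Fastkd1, Camk1d, Tafazzin, B3gntl1 and Usp21 (unadjusted p 0.00596 to 0.0186, adjusted p 0.329 to 0.412). In all 6 the oocyte levels were close to the control and the granulosa levels were lower with dextran. Ggct, which acts in glutathione breakdown, had 9.56, 6.11, 9.98 and 6.45 CPM in granulosa control and 5.31, 5.40, 2.81 and 4.64 in granulosa dextran, without overlap. Its oocyte values were 138, 150, 131 and 127 in control and 148, 134, 202 and 140 in dextran, and the interaction was 1.02 (SE 0.33). Fastkd1, a mitochondrial RNA-binding protein gene, had 32.6, 30.3, 30.8 and 33.1 CPM in granulosa control against 23.5, 24.5, 17.1 and 21.5 in dextran, again without overlap, and 55.4, 47.8, 33.8 and 40.6 against 50.1, 47.5, 64.3 and 44.4 in oocytes (interaction 0.77, SE 0.27). Tafazzin, an enzyme of cardiolipin remodelling, had 77.7, 60.1, 83.3 and 58.8 CPM in granulosa control against 44.9, 46.3, 51.7 and 51.8 in dextran, and 150 to 184 against 162 to 192 in oocytes (interaction 0.55, SE 0.20). Ggct, Fastkd1 and Tafazzin, like Camk1d and B3gntl1 below, differed in granulosa cells without overlap, while their oocyte groups overlapped. They were picked by interaction p, and 5.35% of all shared genes had granulosa groups without overlap.

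Camk1d, a calmodulin-dependent kinase, had 5.31, 3.14, 5.93 and 12.3 CPM in granulosa control and 1.48, 2.94, 1.02 and 2.44 in dextran, without overlap, and 19.5 to 44.4 against 23.7 to 45.5 in oocytes, for an interaction of 1.82 (SE 0.64). B3gntl1 lay at 19.6 to 25.7 CPM in granulosa control and 13.4 to 18.3 in dextran, without overlap, and at 73.1 to 97.4 against 75.2 to 99.2 in oocytes, for an interaction of 0.59 (SE 0.23). Usp21, a deubiquitinase, overlapped in both cell types, with 38.3 to 58.4 CPM in granulosa control and 22.4 to 41.9 in dextran, and 111 to 132 against 100 to 191 in oocytes (interaction 0.80, SE 0.31). Without oocyte control replicates 1 and 2 the 6 interactions were 0.53 to 2.27, and all 6 kept a positive sign in the alternatives run.

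**Figure D3:**
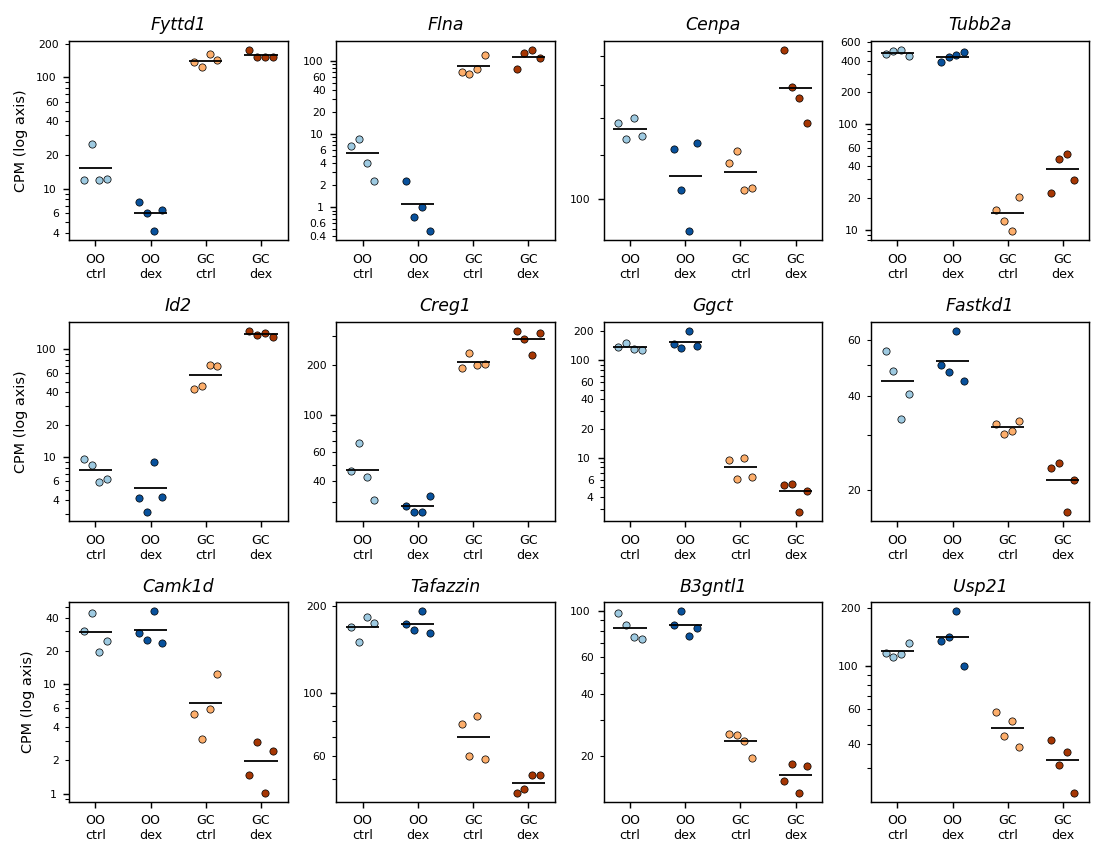
CPM on a log axis of the 12 shared genes with the smallest unadjusted p in either direction, in each library (points, replicates 1 to 4 from left to right) with group means (lines); OO, oocyte; GC, granulosa cells. Tubb2a and Id2 differ between granulosa groups without overlap, Fyttd1 and Flna between oocyte groups.

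Groups that did not overlap were uncommon in either cell type. Among the shared genes 274 (3.47%, against 2.45% of all genes tested) had oocyte groups without overlap, 422 (5.35%, against 3.76%) had granulosa groups without overlap, and in 17 neither overlapped. Of these, 7 went in opposite directions (0.0888%, against 0.0582% of all genes tested) and 10 in the same direction (0.127%, against 0.0534%). The 7 genes, named after their values were seen, were Cenpa, N4bp2l1, Rbpms, Flot1, Exoc7, Zyg11b and Tmub2, and all were lower in dextran oocytes and higher in dextran granulosa cells. Rbpms, an RNA-binding protein gene, had 157, 160, 182 and 177 CPM in oocyte control and 137, 132, 147 and 144 in dextran, and 14.9, 22.2, 15.2 and 19.8 against 22.4, 31.6, 32.2 and 30.3 in granulosa cells. Its interaction was -0.96 (SE 0.27, unadjusted p = 0.00155) and -1.0 without oocyte control replicates 1 and 2. Flot1, which encodes the membrane scaffold protein flotillin, had 59.9, 49.7, 61.3 and 55.3 CPM in oocyte control and 45.3, 28.6, 48.3 and 41.7 in dextran, and 41.0, 28.6, 33.5 and 40.5 against 44.7, 48.0, 43.1 and 43.9 in granulosa cells (interaction -0.79, SE 0.27, and -0.79 without those libraries). Both genes were more abundant in oocytes than in granulosa cells. N4bp2l1 was 3.83, 11.2, 5.58 and 5.45 CPM in oocyte control and 2.69, 1.80, 3.65 and 3.55 in dextran, and 67.5 to 73.9 against 93.8 to 140 in granulosa cells, with the highest oocyte value in replicate 2 (interaction -1.79, or -1.51 without replicates 1 and 2). Exoc7, a subunit of the exocyst that tethers vesicles, had 36.9 to 42.8 against 25.6 to 36 CPM in oocytes and 68.3 to 76.5 against 78.5 to 83.2 in granulosa cells, and with -0.52 (SE 0.18) the smallest interaction of the 7.

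Lysosome and proton pump genes had higher levels in dextran granulosa cells, while dextran oocytes stayed within the range of their controls. Of 26 shared members all 26 had a positive granulosa change (median 0.36), and the median oocyte change was -0.12. The median interaction was -0.43, which is -0.28 relative to the shared genes, 25 of 26 were negative, and 12 of 26 were lower at an unadjusted p under 0.05 against 7.55% of shared genes, while 0 passed the adjusted test. Without oocyte control replicates 1 and 2 the median was -0.26 (-0.32 relative to the shared genes). At that level 6 members were then lower, against 1.57% of shared genes. The lists were chosen with earlier results of these data known, and the members were measured in the same libraries. These counts are therefore not independent support. The mean log2 CPM of the members was 6.94, 6.87, 6.90 and 6.97 in granulosa control and 7.31, 7.27, 7.19 and 7.35 in granulosa dextran, without overlap. In oocyte control it was 6.07, 6.55, 5.89 and 5.38 and in oocyte dextran 5.78, 5.70, 5.72 and 5.85, which lay inside the control range.

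Among subunits of the vacuolar proton pump, which acidifies the lysosome, Atp6v1e1 had the smallest p. It had 96.4, 92.1, 101 and 117 CPM in granulosa control and 132, 134, 145 and 150 in dextran, and 270, 246, 288 and 240 against 239, 263, 204 and 259 in oocytes. Granulosa groups did not overlap and oocyte groups did, with an interaction of -0.58 (SE 0.15, unadjusted p = 0.000669) and -0.55 without oocyte control replicates 1 and 2. Atp6v0d1 (-0.39, SE 0.13), Atp6v1h (-0.45, SE 0.17) and Atp6v0c (-0.31, SE 0.14) were also lower at an unadjusted p under 0.05, at -0.37, -0.24 and -0.36 without those libraries, and Atp6v1a (0.11, SE 0.24) was the member of the list with a positive value. Among the hydrolases Ctsa, cathepsin A, had 147, 131, 151 and 190 CPM in granulosa control and 163, 192, 189 and 226 in dextran, and 8.29, 21.1, 11.4 and 6.89 against 3.05, 7.07, 6.20 and 5.6 in oocytes (interaction -1.43, SE 0.42, and -0.99 without those libraries). Ctsl, cathepsin L, and the vesicle tetraspanin Cd63 had much larger values (-4.01 and -3.74) that became 0.03 and 0.43 without those 2 libraries. In oocyte control Ctsl was at 23.8, 153, 3.61 and 2.07 CPM and in oocyte dextran at 5.45, 4.47, 1.53 and 3.71, so its high values were those of replicates 1 and 2.

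Many lysosomal genes carry the palindrome TCACGTGA near their start, the core of the element bound by the factors TFEB and TFE3 in their textbook description. In RefSeq promoter windows (mouse build GRCm38.p6, 250 bases before to 50 after the start), TCACGTGA was found in 5 of 20 shared lysosome genes with a window (25.0%). Over all gene symbols with a window, expressed in these cells or not, it was found in 304 of 27025 (1.12%). The shorter CACGTG inside it, which the longer matches also hold, was found in 8 of 20 (40.0%) against 8.09%. Because the element is known from lysosomal genes, a higher share in this list was fixed in advance. It says nothing about the response to dextran. The search reads the same on both strands, and a match is a description of the sequence, not a site. The 4 genes with a match before the start are shown, with that match in capitals, because they let the members' values be read beside the element.
Ctsa (chr2:164833724-164833772, plus strand): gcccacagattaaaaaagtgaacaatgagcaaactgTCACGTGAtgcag
Ctsd (chr7:142387883-142387962, minus strand): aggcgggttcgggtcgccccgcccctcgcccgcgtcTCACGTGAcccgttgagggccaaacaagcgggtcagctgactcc
Mcoln1 (chr8:3500437-3500516, plus strand): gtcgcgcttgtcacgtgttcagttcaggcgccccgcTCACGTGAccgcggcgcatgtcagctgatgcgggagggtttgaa
Atp6v1a (chr16:44139348-44139427, minus strand): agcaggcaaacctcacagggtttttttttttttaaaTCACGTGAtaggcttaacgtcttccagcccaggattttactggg

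The values of these 4 genes were unlike. Their granulosa changes were 0.32 (Ctsa), 0.38 (Ctsd, cathepsin D), 0.22 (Mcoln1, a lysosomal calcium channel) and 0.07 (Atp6v1a), and their interactions were -1.43, -0.45, -0.04 and 0.11. Mcoln1 had 36.2, 30.5, 39.1 and 31.6 CPM in granulosa control and 43.1, 30.1, 42.6 and 44.0 in dextran, and 91.0, 90.4, 97.2 and 97.2 against 106, 106, 132 and 81.5 in oocytes, so both cell types overlapped and both means were slightly higher with dextran. Ctsd had 250, 217, 203 and 221 CPM in granulosa control and 334, 297, 237 and 289 in dextran, and 26.3, 67.1, 39.7 and 28.0 against 29.5, 34.7, 54.6 and 33.8 in oocytes. Atp6v0d1, whose match lies past the start, had a granulosa change of 0.29.

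**Figure D4:**
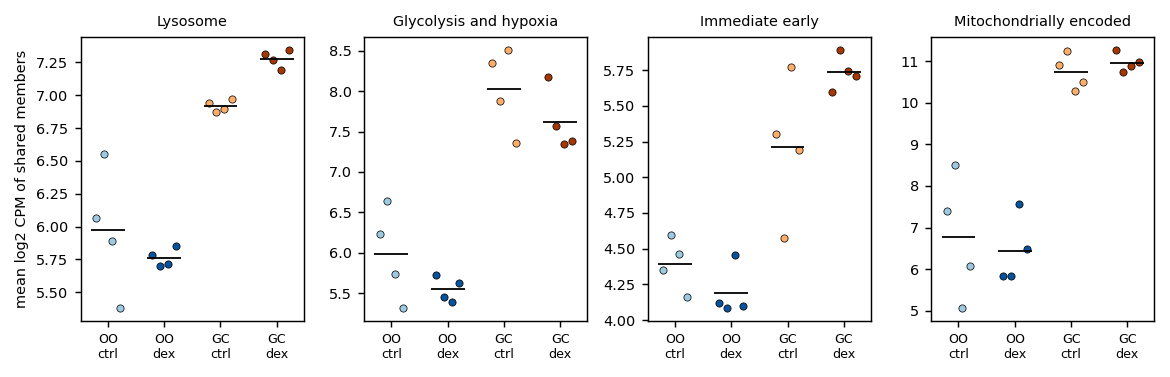
Mean log2 CPM of the shared members of 4 gene lists in each library (points, replicates 1 to 4 from left to right) with group means (lines); OO, oocyte; GC, granulosa cells; each panel has its own axis, which does not start at 0. Lysosome genes separate the granulosa groups without overlap (6.87 to 6.97 against 7.19 to 7.35), while mitochondrially encoded genes spread widely in oocyte control.

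Glycolysis and hypoxia response genes had 20 shared members, all with a negative granulosa change (median -0.44). The median oocyte change was -0.21 and the median interaction 0.10 (0.25 relative to the shared genes). At an unadjusted p under 0.05, 0 were higher and 1 lower, against 0.393% and 7.55% of shared genes. The median interaction was 0.51 and 3 members were higher, against 2.02% of shared genes, without oocyte control replicates 1 and 2. The granulosa controls themselves differed. Pgk1, phosphoglycerate kinase, had 443, 313, 553 and 185 CPM in granulosa control and 378, 208, 160 and 171 in dextran, so the groups overlapped, and 61.3, 80.8, 34.4 and 38.9 against 34.0, 48.9, 29.7 and 37.7 in oocytes (interaction 0.19, SE 0.44, and 0.80 without those 2 libraries). Ldha, lactate dehydrogenase A, was the member with the smallest p, and it went the other way from the list, at 87.3, 111, 11.9 and 2.44 CPM in oocyte control against 7.05, 0.0667, 0.128 and 1.89 in oocyte dextran. Its granulosa values were 1780, 1110, 2050 and 643 in control and 1540, 745, 573 and 646 in dextran, and the interaction of -3.88 (SE 1.42) became -0.95 without oocyte control replicates 1 and 2. Gapdh, a gene with many processed copies in the genome, had an interaction of -0.24 (SE 0.39) that became 0.43 without them.

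Immediate early genes, the first to be transcribed after a stimulus, were mostly too low in oocytes to compare, with 8 of 27 tested genes shared. All 8 had a positive granulosa change (median 0.26) and a negative interaction (median -0.43, or -0.41 without oocyte control replicates 1 and 2). Of the 8, 2 (Ier2 and Dusp1) were lower at an unadjusted p under 0.05 in both fits. Among all shared genes this held for 7.55% with all libraries and 1.57% without those replicates. Ier2 had 9.57, 12.1, 13.3 and 5.26 CPM in oocyte control and 5.6, 4.14, 6.33 and 3.39 in oocyte dextran, and 114, 68.0, 130 and 151 against 110, 173, 130 and 141 in granulosa cells, overlapping in both (interaction -1.30, SE 0.43, and -1.13 without those libraries). Dusp1, a phosphatase of MAP kinases, had an interaction of -1.02 (SE 0.44) and -1.08 without them. Klf6, a zinc-finger factor, had 34.8, 27.8, 47.3 and 75.6 CPM in granulosa control and 98.1, 103, 110 and 108 in dextran, without overlap, and 8.13, 5.82, 3.95 and 8.15 against 6.98, 7.34, 7.42 and 3.15 in oocytes (interaction -1.24, SE 0.60, unadjusted p = 0.0525, and -1.11 without those libraries). The list's mean log2 CPM overlapped between granulosa groups, at 5.30, 4.57, 5.77 and 5.19 in control and 5.6 to 5.89 in dextran.

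Actin cytoskeleton and serum response factor target genes had 22 shared members, 18 with a positive granulosa change (median 0.17) and 19 with a negative interaction (median -0.40, relative to the shared genes -0.26), of which 8 were lower at an unadjusted p under 0.05 (against 7.55% of shared genes). The median was -0.22 and 3 were lower (against 1.57%) without oocyte control replicates 1 and 2. Cytoplasmic gamma-actin, Actg1, had 452, 400, 446 and 596 CPM in granulosa control and 586, 778, 770 and 685 in dextran, and 82.6, 163, 52.6 and 67.0 against 71.3, 75.0, 66.8 and 60.0 in oocytes. Its interaction of -0.99 (SE 0.32) became -0.34 without those 2 libraries, and the counts are uncertain because actin genes have near-identical copies. Talin, Tln1, which links integrins to actin, kept its value (-0.85, SE 0.30, and -0.89 without them). In mean log2 CPM, myosin II and small GTPase pathway genes (16 shared) separated the granulosa groups without overlap, as the lysosome genes did. They stood at 6.27 to 6.43 in granulosa control and 6.55 to 6.69 in granulosa dextran. Their median interaction was -0.29 with 3 lower, which became 0.06 with 2 lower without those libraries. Myl12a, a myosin light chain gene, had an interaction of -0.45 (SE 0.15, and -0.39 without them), and the heavy chain gene Myh9, which is under the limit in oocytes, -0.22 (SE 0.40, and 0.084 without them). YAP and TAZ pathway genes (11 shared) had a median of -0.30 with 1 lower, which became -0.10 with 0 lower. The gene of TAZ, Wwtr1, was that member, at -0.78 (SE 0.34) and -0.71. Its partner Yap1 was at 140, 166, 122 and 137 CPM in oocyte control and 140, 135, 179 and 166 in dextran, and 21.6, 21.4, 20.3 and 23.4 against 23.1, 16.7, 21.3 and 17.1 in granulosa cells, with an interaction of 0.28 (SE 0.27) and 0.45 without the 2 libraries.

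Several lists on the lower side changed with the 2 oocyte control libraries. Cytosolic ribosomal protein genes, which have many processed copies, had 39 of 40 members negative, a median of -0.38 and 16 members lower at an unadjusted p under 0.05, against 7.55% of shared genes. Without oocyte control replicates 1 and 2 the median was -0.11 and 0 members were lower, against 1.57% of shared genes. The shared median itself moved from -0.15 to 0.056, and the median oocyte change of the ribosomal list from -0.41 to -0.21. Rpl10a, the member of smallest p, had 77.9, 107, 78.3 and 70.9 CPM in oocyte control and 54.7, 65.3, 61.8 and 55.8 in oocyte dextran, without overlap, and 332 to 437 against 323 to 399 in granulosa cells (-0.52, SE 0.17, and -0.31 without the 2 libraries). Mitochondrially encoded genes had 11 of 11 shared members negative with a median of -0.84, and the sign turned to 0.85 without those 2 libraries. mt-Co1 stood at 440, 1050, 68.9 and 132 CPM in oocyte control and 157, 154, 240 and 163 in oocyte dextran, against 3400 to 6420 and 4600 to 6720 in granulosa cells. Its 2 highest oocyte values were those of replicates 1 and 2, and the interaction of -1.5 (SE 0.75) became 0.61. The mitochondrial share of counts in oocyte control was 0.299%, 0.525%, 0.0795% and 0.131%. Cholesterol genes (23 shared) turned from a median of -0.23 with 3 lower to 0.27 with 0 lower, and unfolded protein and ATF4 response genes (28 shared) from -0.23 with 1 higher and 6 lower to 0.26 with 2 higher and 0 lower. The share of all shared genes on the higher side was 0.393% with all libraries and 2.02% without those 2 libraries. The part of granulosa RNA in these list values was not tested beyond that comparison.

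The remaining lists had medians between -0.43 and -0.08 and 0 members past the adjusted test. Their counts at an unadjusted p under 0.05 are to be read against 7.55% lower and 0.393% higher among all shared genes, and without oocyte control replicates 1 and 2 against 1.57% and 2.02%. NRF2, glutathione, iron and aryl hydrocarbon response genes had 8 of 22 lower and 3 without those libraries (median -0.43 and -0.12), led by the ferritin heavy chain Fth1. Fth1 had 149, 349, 163 and 160 CPM in oocyte control and 118, 123, 97.7 and 140 in oocyte dextran, without overlap, and 1120, 1190, 974 and 1580 against 1350, 1500, 1530 and 1710 in granulosa cells (-1.11, SE 0.31, and -0.72 without oocyte control replicates 1 and 2). The light chain Ftl1 had 1640, 1730, 1390 and 1920 CPM in granulosa control and 2310, 2680, 2650 and 2770 in dextran, without overlap (interaction -1.90, SE 0.62, and -0.77 without them), and both ferritin genes have processed copies. In TGF-beta, BMP and activin signalling 5 of 21 were lower and 1 without those libraries (median -0.29 and -0.01), with Id2 the smallest p. Translation factors had 5 of 30 lower and then 0 (median -0.24 and -0.01), and their leading member Eif3f had an interaction of -0.59 (SE 0.22) and then -0.40. Oxidative phosphorylation genes had 4 of 34 lower and then 1 (median -0.13 and 0.05), with Uqcrb at -0.72 (SE 0.22) and then -0.48.

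Chromatin modifiers had 3 of 30 lower with all libraries and 0 without oocyte control replicates 1 and 2 (median -0.11 and 0.24), with Ash2l at -0.71 (SE 0.23) and then -0.53. Integrin and focal adhesion genes had 3 of 15 lower and then 1, with 1 higher (median -0.26 and 0.18). Mitotic cell cycle genes had 2 higher and 3 lower of 33 and then 2 and 1 (median -0.08 and 0.13). RNA decay genes had 1 higher and 1 lower of 27 and then 2 and 0. Dcp2, which decaps mRNA, was the higher one at 0.53 (SE 0.22) and then 0.60, with 12.5 to 17.1 CPM in granulosa control against 10.4 to 12.8 in dextran. Nuclear lamina and LINC genes had 2 of 13 lower and then 1 (median -0.19 and 0.07). The nesprin gene Syne2 had 287, 282, 283 and 475 CPM in granulosa control and 293, 523, 739 and 639 in dextran, with an interaction of -0.91 (SE 0.34) and then -0.84.

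Heat shock genes had 2 of 16 lower with all libraries and 0 without oocyte control replicates 1 and 2, with 1 higher (median -0.28 and 0.06). Hspb1, a small chaperone, had 11.5, 9.74, 7.45 and 13.4 CPM in granulosa control against 11.2, 21.8, 51.2 and 53 in dextran, while oocytes had 4.64 to 6.56 against 4.40 to 10.1 (-1.25, SE 0.59, and -1.12 without the 2 libraries). Proteasome, chaperonin, spliceosome and apoptosis lists had 1 lower each, of 31, 13, 32 and 19, and 0 without them. Their leading members were Psmd13 (-1.07, SE 0.31), Cct6a (-1.96, SE 0.69), Snrpb (-0.96, SE 0.29) and Xiap (-0.80, SE 0.32), and without oocyte control replicates 1 and 2 these were -0.45, -0.20, -0.40 and -0.52. Osmotic stress and cell volume genes, of interest because dextran acts osmotically, had 2 of 17 lower with a median of -0.20, and 1 lower with a median of 0.02 without those libraries. Their leading gene Slc38a2, an amino acid transporter, had 5.02, 29.9, 1.36 and 0 CPM in oocyte control and at most 1.42 in oocyte dextran. The inositol transporter Slc5a3 had an interaction of -0.56 (SE 0.75, and 0.58 without them) and its regulator Nfat5 of -1.44 (SE 1.18, and -0.73 without them), both far from the threshold. Of the mechanosensitive channels 2 were shared, and Trpm7 had an interaction of -0.38 (SE 0.32) and then 0.12. Basement membrane genes had 2 of 10 lower and then 1 (median -0.41 and -0.12), and junction genes 2 of 11 and then 0 (median -0.39 and -0.18). Sdc4, a syndecan, had 142, 88.1, 131 and 138 CPM in granulosa control and 260, 280, 228 and 302 in dextran, without overlap, and 5.18, 16.3, 1.63 and 1.63 against 0.873, 3.00, 1.60 and 1.03 in oocytes. Its interaction of -3.01 (SE 0.73) became -1.04 without those 2 libraries.

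**Figure D5:**
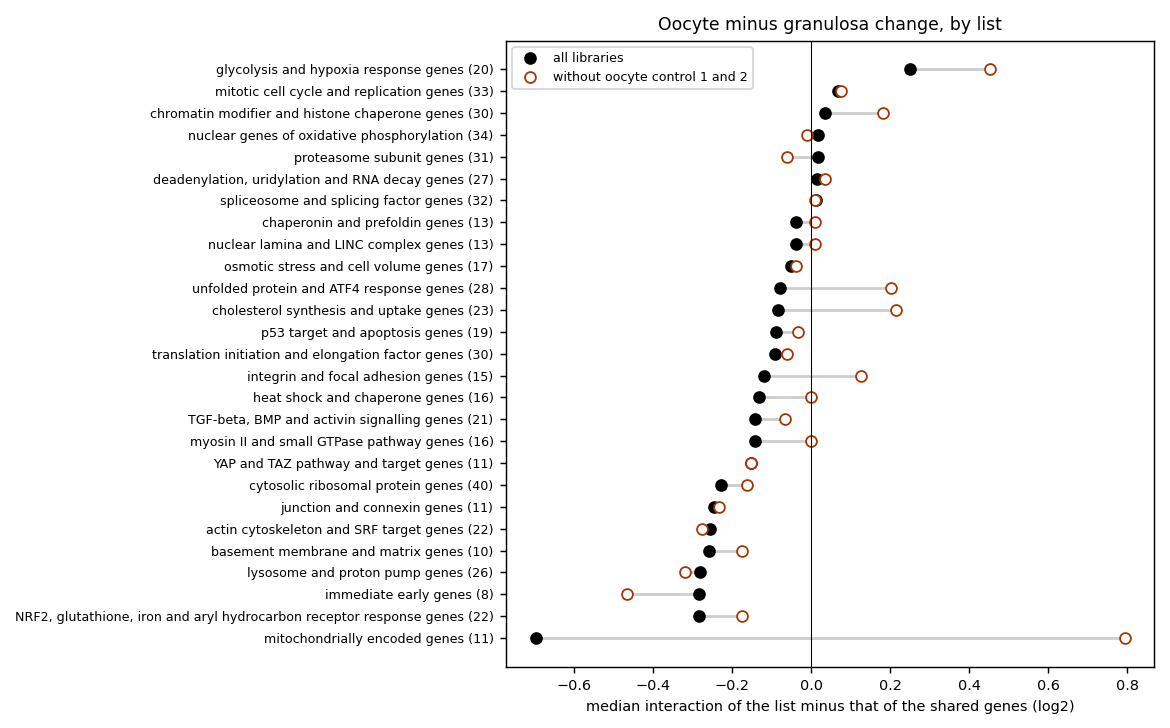
Median interaction of each list of 8 or more shared genes (number of shared members in brackets) minus the median of all shared genes, on the log2 scale, with all libraries (filled) and without oocyte control replicates 1 and 2 (open). Lysosome genes (-0.28 and -0.32) and immediate early genes stayed on the lower side. So did other lists, among them the actin, junction, basement membrane, NRF2, ribosomal protein and YAP lists. Glycolysis genes stayed on the higher side, and the chromatin and cell cycle lists did so by less. The RNA decay and spliceosome lists lay near the shared median in both fits. Mitochondrially encoded genes crossed from -0.70 to 0.79.

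Of 7 anchor genes of signalling, cell contact and the zona, the oocyte factors Gdf9 and Bmp15, the zona gene Zp3 and the receptor gene Kit were oocyte-only, and Kitl, Gja1 and Inhbb were shared. Gdf9 had 8800, 8490, 7330 and 4050 CPM in oocyte control and 7490, 5520, 7380 and 6080 in dextran, Bmp15 had 1100 to 2440 against 1380 to 2190, and Zp3 had 2560 to 2780 against 1590 to 3030. All 3 overlapped between oocyte groups and were below 1.5 CPM in granulosa libraries, where no interaction can be read. Kit, the receptor on the oocyte, had 179 to 391 CPM in oocyte control and 200 to 328 in dextran, and its granulosa ligand Kitl had 133, 72.9, 93.9 and 58.4 in granulosa control against 229, 134, 110 and 78.8 in dextran. Both overlapped, with a Kitl interaction of -1.20 (SE 0.66) and -0.59 without oocyte control replicates 1 and 2. Gja1, the granulosa connexin, was far higher in 2 oocyte control libraries than in the others. Its oocyte control values were 164, 744, 5.92 and 5.52 CPM and its oocyte dextran values 11.6, 2.54, 0.448 and 15.8, against 6720 to 8560 and 7450 to 8370 in granulosa cells, and the interaction of -4.96 (SE 1.53) became 0.38 without oocyte control replicates 1 and 2. Inhbb, an activin subunit, went from -4.65 to 0.05, with 175 to 732 CPM in granulosa control and 53.7 to 224 in dextran. Psat1 of serine synthesis and Tgfb1i1 had oocyte control values above 4 CPM in replicates 1 and 2 only, of 4.62 and 54.3, and 5.26 and 20.7 CPM.

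The granulosa-only genes had a median interaction of -1.11, and 564 of 2129 (26.5%) had an unadjusted p under 0.05, 559 of them lower, while 0 passed the adjusted test. Of all genes tested, 1.52% were higher and 7.76% lower at that unadjusted level. Oocyte control values of the granulosa-only genes are low by definition. Id1, a second BMP target and the gene of smallest p overall (2.33e-05, adjusted p 0.246), had 22.6, 21.7, 24.4 and 23.6 CPM in granulosa control and 48.7, 81.5, 65.9 and 86.1 in dextran, without overlap, a change of 1.61 (SE 0.33). Oocytes had 1.59, 4.33, 2.93 and 1.75 CPM in control and 0.800, 1.33, 1.15 and 1.97 in dextran, which overlapped, and the interaction was -2.63 (SE 0.49) and -2.39 without oocyte control replicates 1 and 2. Dtx3, a ubiquitin ligase gene, had 0.558, 3.31, 0.272 and 1.13 CPM in oocyte control and 0, 0, 0 and 0.0789 in dextran (1 count in all), with overlapping granulosa values of 18.9 to 29.1 and 16.7 to 31.0. On the higher side Cnn2 was at 0 in the 4 oocyte control libraries and at 0, 0, 0.640 and 0.158 CPM in dextran, and Cox6b2 had 4.14 to 5.51 CPM in oocyte control and 4.22, 7.48, 31.5 and 3.47 in dextran, where replicate 3 set the difference. The AP-1 gene Jun had 57.2, 30.5, 75.8 and 109 CPM in granulosa control and 116, 248, 159 and 168 in dextran, without overlap, and under 1 CPM in each oocyte library. Ier3 had 7.42 to 17.0 against 28.0 to 60.8 CPM in granulosa cells, without overlap, and Fos 63.6 to 203 against 134 to 386 and Ccn1, a YAP target, 8.07 to 34.1 against 10.2 to 125, both with overlap. Papss2, a sulfate-activating enzyme gene and the one called without oocyte control replicates 1 and 2 (adjusted p 0.0133), had 1.99, 7.17, 0 and 0 CPM in oocyte control and 0.800, 2.54, 2.94 and 1.5 in oocyte dextran, so its 2 remaining controls were at 0. With all libraries its adjusted p was 1.

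Oocyte-only genes were centred near 0, with a median interaction of -0.01 and 0 past the adjusted test. At an unadjusted p under 0.05, 141 were higher and 115 lower (8.67% together), against 1.52% higher and 7.76% lower of all genes tested. The genes of smallest p differed in granulosa values of under 2 CPM. Mab21l2 had 23.9 to 36.4 CPM in oocyte control and 26.7 to 28.1 in dextran, and granulosa values of 0.297, 0.163, 0.168 and 0 in control and 0 in the 4 dextran libraries. Zmat4 had 38.1 to 66.2 against 47.2 to 75.8 CPM in oocytes and 0.425, 0, 0.295 and 1.08 against 0 in granulosa cells. Svopl and Ccser1 were at 0 in the 4 granulosa controls and reached at most 0.255 and 0.425 CPM in granulosa dextran, with overlapping oocyte values of 41.1 to 63.3 against 44.3 to 57.2 and 35.5 to 65.5 against 44.4 to 51.5. The oocyte levels of all 4 genes overlapped between control and dextran, and the granulosa values behind their interactions are a few reads.

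With the 2 oocyte control libraries left out, the shared genes of smallest p were Sde2, Stag1 and Rnf19a on the higher side and Fyttd1, Hadh and Tubb2a on the lower side, a list chosen after seeing the data. Sde2, which acts in replication and splicing, had 22.2, 39.4, 12 and 9.34 CPM in oocyte control and 26.2, 22.9, 24.4 and 26.3 in oocyte dextran, so the 2 remaining controls lay below dextran and the 2 left out lay on either side of it. Stag1, a cohesin subunit, had 23.5, 35.2, 14.8 and 9.65 against 27.6, 23.1, 20.5 and 24.1, and Rnf19a had 52.1, 77.1, 29.2 and 33.5 against 63.0, 53.2, 48.9 and 64.9. The interactions were 1.35, 0.92 and 1.17 without the 2 libraries and 0.35, 0.11 and 0.51 with them. Hadh, an enzyme of fatty acid oxidation, had 7.5, 29.8, 7.35 and 5.26 CPM in oocyte control and 2.55, 2.34, 2.56 and 2.52 in oocyte dextran, without overlap, and 161 to 207 against 172 to 197 in granulosa cells. Its interaction was -2.30 (SE 0.52) and -1.26 (SE 0.28) without the 2 libraries, with adjusted p 0.266 and 0.602.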

How the data were processed

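RNA was sequenced from 24 libraries, 4 in each of 6 groups, with 15 PCR cycles of cDNA amplification. The authors deposited salmon estimated counts, per the labels, as 1 table for each cell type, and these were joined on gene identifier. GRCm39 is named as the build in the submitters' processing notes. Annotation release, software versions and strandedness: not given in the sources used here, so antisense neighbours cannot be told apart. Values were rounded, filtered with filterByExpr, scaled with TMM factors over the 24 libraries and fitted with edgeR 4.0.16 (robust quasi-likelihood test, Benjamini-Hochberg over all genes, threshold 0.05). DESeq2 1.42.0 and limma 3.58.1 served as alternatives. CPM values are TMM-scaled unless stated. Members and lists (28 pathway, 8 marker) were chosen with earlier results of these data known. Named genes are the 6 shared genes of smallest p per direction, since none passed, 2 per direction in the other classes, 1 per list, and anchor genes. Further lysosome, glycolysis, immediate early and actin members, and genes whose groups did not overlap, were picked after their values were seen. Some named genes are not reported here. Predicted models (242 of the shared genes) were counted but not named. No replicate pair was a duplicate (lowest chi-square 12.4 per gene over 36 pairs). Tested on simulated interactions over 19797 genes, the fit recovered 23 of 100 genes changed 2-fold and 73 of 100 changed 4-fold, and 3 calls were false.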

Additional observations from a re-analysis of the deposited data

Results flagged for a closer look

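In 5 of 124 groups of 4 libraries examined, 1 library lay far from the other 3 by Dixon's test at the 95% level, which by chance marks about 1 group in 20. Fyttd1 stood at 24.9 CPM in oocyte control replicate 2 against 11.9 to 12.3 in the others, and at 176 CPM in granulosa dextran replicate 1 against 151 to 152. Cox6b2 stood at 31.5 CPM in oocyte dextran replicate 3 against 3.47 to 7.48. The mitochondrial share of counts was 0.317% in oocyte dextran replicate 3 against 0.105% to 0.136%. The red blood cell marker list stood at 2.73 (mean log2(CPM + 1)) in oocyte control replicate 4 against 0.0553 to 0.481.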

How the results depend on the processing

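The absence of calls depended on the tool and on single libraries. DESeq2 called 210 genes in the interaction (39 shared, 108 granulosa-only, 36 oocyte-only), 550 for dextran in oocytes and 90 for dextran in granulosa cells. A replicate block within each cell type called 34 (2 shared, 20 granulosa-only, 12 oocyte-only), 47 and 13, and a replicate block over all libraries or by culture called 0. The labels do not say whether replicate numbers pair the samples. Correlations of same-numbered deviations ran from -0.294 to 0.37, and 6 of 16 were best with their own number, which does not settle it. Limma voom called 1 gene in oocytes and 23 in granulosa cells (1 and 21 with a variance weight per cell type), no filter on low counts 2 and 1, and the control and dextran libraries alone 2 in granulosa cells. Without oocyte control replicates 1 and 2, an alternative chosen after seeing the data, there was 1 call in the interaction, granulosa-only, and 1 in oocytes. Leaving out 1 library gave 0 to 91 calls in the interaction (shared 0 to 42, granulosa-only 0 to 44, oocyte-only 0 to 2), 0 to 732 in oocytes and 0 to 27 in granulosa cells. The 91 came without oocyte control replicate 4, with 90 lower and 76 over 10-fold higher in granulosa cells, and the oocyte comparison had 478 calls without replicate 3 and 732 without replicate 4. Their cause was not tested.

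The shared median of -0.15 was -0.020 with DESeq2, -0.020 with size factors, -0.050 with TMM factors within each cell type, 0.056 without both libraries, and -0.203 to 0.0447 with 1 library left out. Without both libraries the sign turned for Cd63 (0.43), Fos (1.73), Gapdh (0.43), Gja1 (0.38), Inhbb (0.046), Myh9 (0.084), Slc5a3 (0.58), Tgfb1i1 (4.76), Trpm7 (0.12) and mt-Co1 (0.61). With 1 library left out, values ran from -1.37 to 3.63 for Bmp15, -0.413 to 0.364 for Gapdh, -0.614 to 0.144 for Gdf9, -0.419 to 0.0701 for Myh9, -0.924 to 0.111 for Slc5a3 and -0.131 to 0.612 for Stag1. For library measures the interaction ran from -759.8 to 730.2 genes detected, and in mean log2(CPM + 1) from -0.0131 to 0.102 for immune, -0.0393 to 0.0287 for oocyte (0.0598 with unscaled totals), -0.752 to 0.148 for red blood cell and -0.41 to 0.17 for theca markers. At 15 PCR cycles and 1 to 2 oocytes per library, genes of a few CPM rest on few molecules.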
